A study of Mus musculus with 6 samples.

Results

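Voltage-gated calcium and sodium channels were examined in 6 arrays of mouse cerebellum taken at postnatal day 7. In 3 knockout arrays (Math1Cre::CrebbpFl/Fl) both Crebbp alleles were floxed and Cre was driven by Math1. The 3 wild-type arrays came from Math1Cre mice with wild-type Crebbp, so both groups carried the Cre transgene. Math1 (Atoh1) is active in the granule neuron lineage, though not only there. Purkinje cells, inhibitory interneurons and glia do not arise from cells with Math1 and should keep Crebbp. CREBBP is a lysine acetyltransferase that acts as a coactivator for CREB and many other transcription factors. Whole cerebellar tissue was measured, and the labels do not say whether each array held 1 animal. The p-values therefore cover only the variation among these 6 samples, and some of it may be technical.

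The channel genes were chosen by their symbols: the calcium channel alpha1, alpha2delta, beta and gamma subunits and the sodium channel alpha and beta subunits. Where a gene had several probe sets with a single symbol, the brightest on average over the 6 arrays was used. This gave 36 channel genes among 22180 genes tested, 25 of them calcium and 11 sodium channel genes. Channel genes outside these 36 were not analysed here. Brightness chose the probe set, so the level of a gene is a description and is not set against that of another gene. The difference between the groups played no part in the choice of probe set.

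A voltage-gated calcium channel is built around an alpha1 subunit, which forms the pore, senses voltage and sets the current type. Alpha2delta subunits are extracellular and bring channels to the membrane and the synapse, beta subunits bind alpha1 in the cytoplasm and aid its traffic, and most gamma subunits in brain are better known as partners of AMPA-type glutamate receptors. In neurons these channels couple firing to transmitter release, to dendritic excitability and to calcium-dependent transcription. Voltage-gated sodium channels have a pore-forming alpha subunit with beta subunits that also act in cell adhesion, and they start and carry the action potential. In the cerebellum, young granule neurons acquire calcium currents as they migrate inward and send out parallel fibres.

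The groups and a second tissue in the samples were checked first. Crebbp read 11.46, 11.42 and 11.32 on the knockout arrays, against 11.96, 11.99 and 11.90 on the wild-type arrays (log2 values). All 3 knockout arrays lay below all 3 wild-type arrays (log2 change -0.56, SE 0.05, limma adjusted p = 0.000354). The sources used here do not say whether that probe set covers the deleted part. Markers of choroid plexus, an epithelium next to the cerebellum, differed between arrays. Its secreted protein gene Ttr read 13.77, 9.19 and 13.92 on the knockout arrays, against 12.30, 8.08 and 8.91 on the wild-type arrays. Knockout replicates 1 and 3 and wild-type replicate 1 thus stood apart with Ttr above 10, and the channel results are also given without these 3 arrays. The mean of 7 Purkinje cell markers ran from 10.84 to 10.95 on knockout arrays and from 10.73 to 10.94 on wild-type arrays.

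Of the 36 channel genes, 6 fell in the knockout and 0 rose by limma at an adjusted p under 0.05. All 6 were calcium channel genes. Among alpha1 subunits Cacna1a, Cacna1c, Cacna1e and Cacna1g fell, and among alpha2delta subunits Cacna2d1 and Cacna2d3 did. None of the 3 beta, 8 gamma, 8 sodium alpha or 3 sodium beta subunits passed. Over all genes tested 3.94% fell and 2.72% rose. The changes were small, from 1.17-fold for Cacna1a to 1.43-fold for Cacna2d3.

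At an unadjusted p under 0.05 in limma, 13 of the 36 channel genes had a negative change and 2 a positive one. Over all 22180 genes tested, 2411 had a negative and 2120 a positive change at that p. On 14 of the 36 genes every knockout array lay below every wild-type array, which held for 13.1% of all genes, and on 2 every knockout array lay above, which held for 11.8% of all genes. The median log2 change was -0.15 over the 25 calcium channel genes and -0.07 over the 11 sodium channel genes, beside -0.0028 over all genes tested. A negative change was found in 20 of 25 calcium and 8 of 11 sodium channel genes, against 50.9% of all genes. The number that fell was 3 without the 3 arrays with high Ttr (Cacna1c, Cacna1e and Cacna2d1), a fit that holds 1 knockout array and assumes that it varies like the wild-type arrays. It was also 3 with a prior variance that does not follow brightness.

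**Figure D1:**
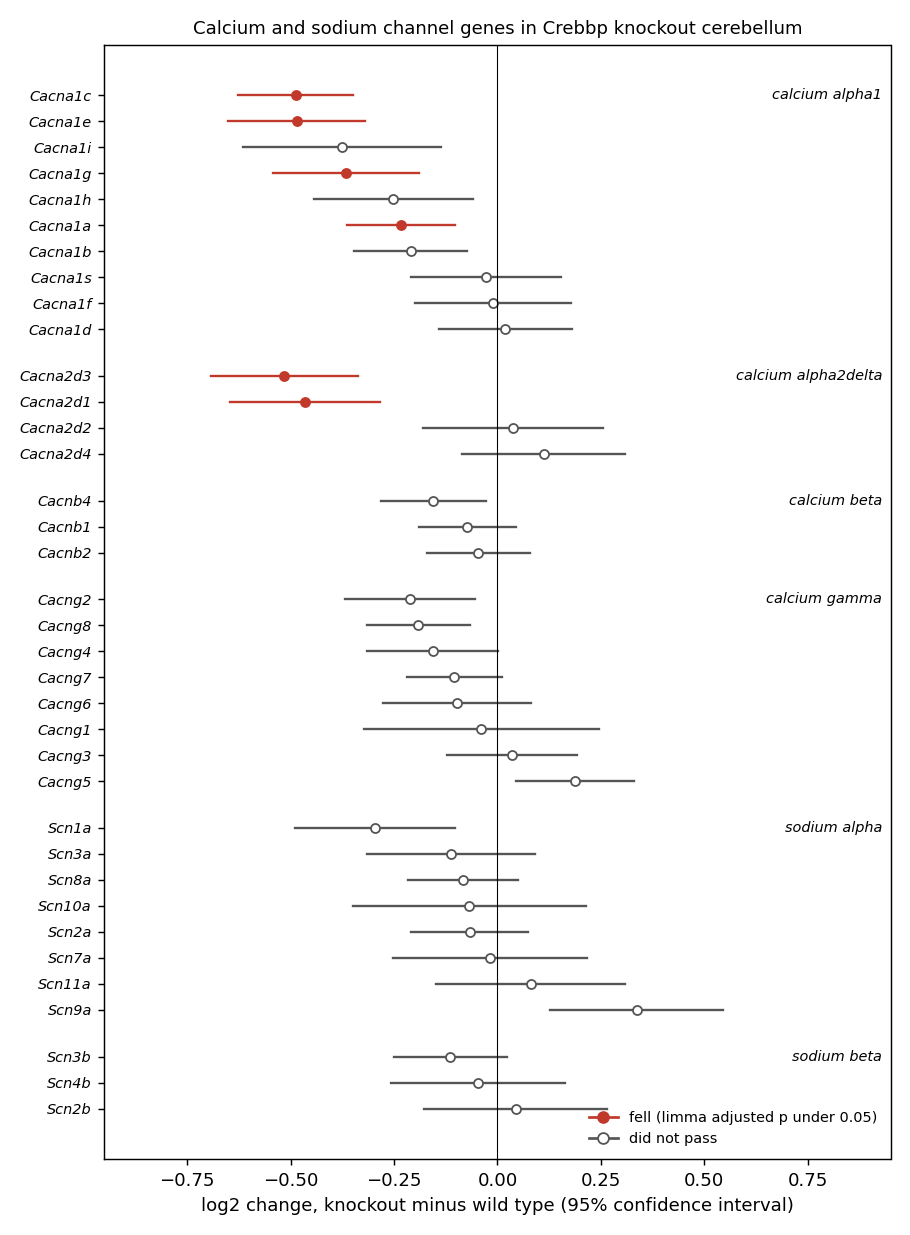
Log2 change (knockout minus wild type, horizontal axis) with its 95% confidence interval for each of the 36 channel genes, grouped by subunit family. Filled red points are the 6 genes that fell, all of them alpha1 or alpha2delta subunits, and open points are genes that did not pass.

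Of the 10 alpha1 genes 4 fell, with a family median of -0.24, and 9 of the 10 changes were negative. Cacna1c, the L-type channel Cav1.2 that links depolarisation to transcription in neurons, read 9.47, 9.32 and 9.43 on the knockout arrays, against 9.86, 9.998 and 9.84 on the wild-type arrays. The groups were separated by more than either group's own range (log2 change -0.49, SE 0.06, adjusted p = 0.00209, a 1.4-fold change). Cacna1d, the other L-type channel of neurons (Cav1.3), read 9.23, 9.21 and 9.20 in knockout, against 9.11, 9.37 and 9.11 in wild type. Its groups overlapped, with a change of 0.02 and a 95% confidence interval of -0.14 to 0.18, and it did not pass. The changes of Cacna1c and Cacna1d differed by -0.51. An exact two-sided permutation of the arrays gave p = 0.1 for that difference (0.1 after adjustment over 3 such gene pairs picked after their values were seen). That is the smallest p that 3 against 3 arrays allow, so the test cannot decide on that difference.

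Cacna1e, the R-type channel Cav2.3, fell by a similar amount. It read 10.20, 10.21 and 10.35 on the knockout arrays, against 10.61, 10.90 and 10.70 on the wild-type arrays (log2 change -0.49, SE 0.07, adjusted p = 0.00492). No knockout array reached the lowest wild-type array. Cacna1c and Cacna1e passed in all 16 alternative fits tried.

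Cacna1g, a T-type channel (Cav3.1) that opens near rest, read 9.31, 9.36 and 9.40 in knockout, against 9.57, 9.91 and 9.69 in wild type (log2 change -0.37, SE 0.08, adjusted p = 0.0242). The wild-type arrays were more spread than the knockout arrays: the SD was 0.04 in knockout and 0.17 in wild type. The call was lost when any of 4 arrays was left out: adjusted p = 0.0795 without knockout replicate 1, 0.0503 without knockout replicate 2, 0.0503 without wild-type replicate 2, and 0.0505 when wild-type replicate 3 was dropped. Without the 3 arrays with high Ttr the change was -0.44 (adjusted p = 0.115).

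Cacna1a, the P/Q-type channel Cav2.1 that drives transmitter release at parallel fibre and many other synapses, had the smallest change of the genes that passed. It read 10.23, 10.26 and 10.16 on the knockout arrays, against 10.41, 10.57 and 10.38 on the wild-type arrays (log2 change -0.23, SE 0.06, adjusted p = 0.0442). The groups did not overlap, but the adjusted p passed the threshold in only 1 of the 6 fits that left out an array, the one without wild-type replicate 3, and ran from 0.0488 to 0.125 over them. Mutations of this gene cause ataxia in mice. Its N-type relative Cacna1b (Cav2.2) read 10.07, 9.94 and 9.99 in knockout, against 10.26, 10.27 and 10.10 in wild type. It did not pass (log2 change -0.21, 95% confidence interval -0.35 to -0.07, adjusted p = 0.0724), although its interval overlaps almost wholly with that of Cacna1a (-0.36 to -0.10).

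The other T-type genes had changes of the same sign that did not pass. Cacna1i (Cav3.3) read 7.54, 7.20 and 7.50 in knockout, against 7.81, 7.92 and 7.64 in wild type (log2 change -0.38, adjusted p = 0.0695). Cacna1h (Cav3.2) read 7.53, 7.50 and 7.33 in knockout, against 7.81, 7.72 and 7.59 in wild type (log2 change -0.25, adjusted p = 0.123). In both genes the groups did not overlap. The muscle channel Cacna1s and the retinal channel Cacna1f read between 6.69 and 7.04 on all arrays, with changes of -0.03 and -0.01.

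**Figure D2:**
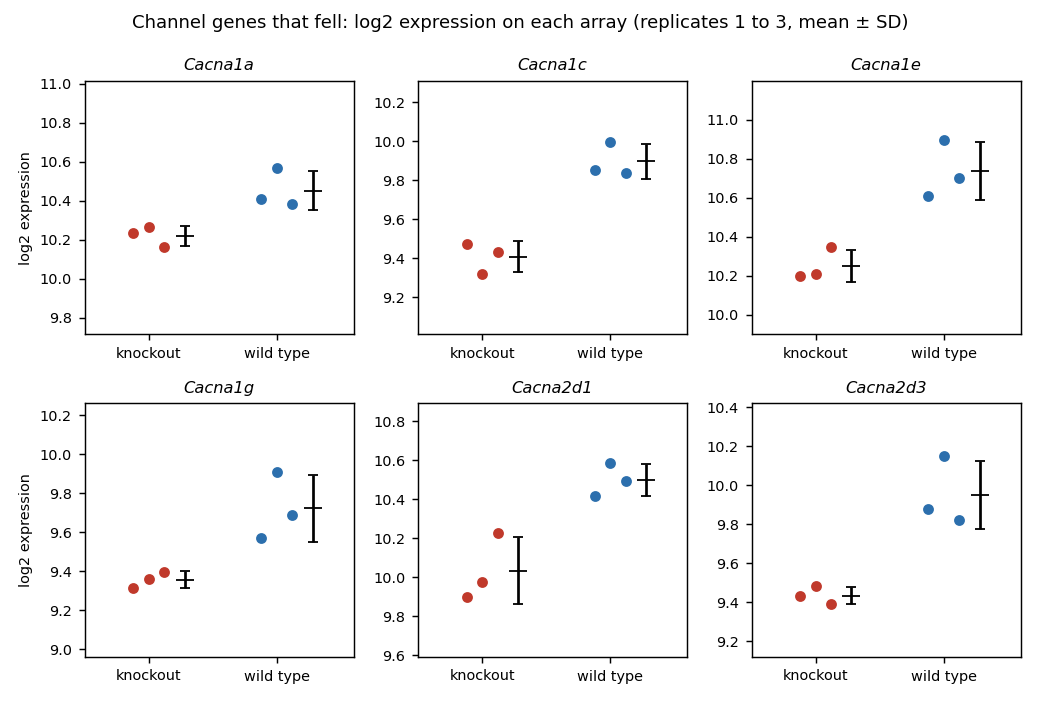
Log2 expression (vertical axis) of the 6 channel genes that fell, with 1 point for each of the 3 knockout arrays (red) and 3 wild-type arrays (blue) and black marks for the mean and SD of a group. In each panel every knockout array lies below every wild-type array, and wild-type replicate 2 is the highest of the 6 arrays.

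Of the 4 alpha2delta genes 2 fell and 2 did not pass, with a family median of -0.21. Cacna2d3 encodes an alpha2delta protein of the central nervous system. It read 9.43, 9.48 and 9.39 on the knockout arrays, against 9.88, 10.15 and 9.82 on the wild-type arrays (log2 change -0.52, SE 0.08, adjusted p = 0.00532), the largest fall among the channel genes. The knockout arrays lay within 0.1 of each other. Cacna2d1, the binding site of gabapentin and a receptor for thrombospondins, read 9.90, 9.98 and 10.23 in knockout, against 10.42, 10.58 and 10.50 in wild type (log2 change -0.46, SE 0.08, adjusted p = 0.00968). Here the knockout arrays were the more spread, and the highest of them still lay below the lowest wild-type array.

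Cacna2d2, the alpha2delta subunit of Purkinje cells whose loss gives the ducky mouse its ataxia, read 10.38, 10.26 and 10.03 in knockout, against 10.27, 10.29 and 10.002 in wild type. Both groups spanned nearly the same range, with a change of 0.04 and a 95% confidence interval of -0.18 to 0.25. The changes of Cacna2d3 and Cacna2d2, a pair picked after its values were seen, differed by -0.55. The exact permutation p was 0.1 (0.1 after adjustment), the smallest possible here, so the test cannot decide on that difference. Cacna2d4 read 6.47 to 6.66 in knockout and 6.45 to 6.51 in wild type, with a change of 0.11 (not passed).

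Since the knocked-out gene encodes a coactivator of CREB, promoters of channel genes that fell are shown with the letters CREB is known to bind. The GC box GGGCGG, also marked, is a different sequence and not a CREB site. RefSeq promoter windows (build GRCm38.p6, 250 bases before to 50 after a transcript start) were at hand for 28 of the 36 channel genes, 38 windows in all, and for 4 of the 6 that fell. The full cAMP response element TGACGTCA occurred in 0 of the 38 windows, against 1.79% of 32851 windows of all genes. Its core TGACG, searched on both strands and counted also where it lies inside the full element, occurred in 6 of the 38 (15.8%), against 20.8% of all windows and 24.2% of the windows of genes tested. The GC box GGGCGG occurred in 14 of the 38 (36.8%), against 35.7% of all windows and 46.5% of those of genes tested. The E-box CAGCTG, of a kind bound by proneural factors such as Atoh1, occurred in 13 (34.2%), against 16.3% of all windows and 16.2% of those of genes tested. Its share was alike in channel genes that fell (2 of 6 windows, 33.3%) and in those that did not pass (11 of 32, 34.4%). The 250 bases before the start follow for 1 window of each gene that fell and had one, 5′ to 3′ on the gene's strand, with TGACG and GGGCGG on either strand in capitals.
Cacna1c (chr6:119196410-119196659, minus strand): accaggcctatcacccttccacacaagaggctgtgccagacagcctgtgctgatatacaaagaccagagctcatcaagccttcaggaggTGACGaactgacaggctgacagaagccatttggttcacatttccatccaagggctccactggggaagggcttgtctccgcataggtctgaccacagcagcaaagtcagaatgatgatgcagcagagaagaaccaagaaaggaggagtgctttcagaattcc
Cacna1e (chr1:154725921-154726170, minus strand): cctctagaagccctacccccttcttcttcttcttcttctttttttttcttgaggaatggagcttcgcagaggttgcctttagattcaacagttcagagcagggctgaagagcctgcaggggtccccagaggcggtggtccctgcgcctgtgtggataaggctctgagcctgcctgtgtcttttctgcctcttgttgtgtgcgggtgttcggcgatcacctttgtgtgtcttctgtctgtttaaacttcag
Cacna2d1 (chr5:15934441-15934690, plus strand): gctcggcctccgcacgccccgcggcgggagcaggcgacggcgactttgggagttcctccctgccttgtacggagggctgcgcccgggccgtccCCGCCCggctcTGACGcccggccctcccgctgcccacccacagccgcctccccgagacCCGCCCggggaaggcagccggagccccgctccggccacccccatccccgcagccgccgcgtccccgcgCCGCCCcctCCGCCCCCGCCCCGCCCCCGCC
Cacna2d3 (chr14:29721865-29722114, minus strand): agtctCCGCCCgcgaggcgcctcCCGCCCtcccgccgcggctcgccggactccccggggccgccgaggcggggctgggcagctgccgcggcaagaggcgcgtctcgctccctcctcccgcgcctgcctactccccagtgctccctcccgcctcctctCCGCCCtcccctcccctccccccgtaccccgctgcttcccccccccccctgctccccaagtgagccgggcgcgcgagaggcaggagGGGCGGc
The Cacna2d1 window holds 1 TGACG and a run of GC boxes before the start, and the Cacna2d3 window holds GC boxes and no TGACG. Of the 3 Cacna1c windows, the one shown was taken because it holds 1 TGACG, and another, not shown, holds 6 GC boxes. The Cacna1e window holds neither sequence. A match is a description of these letters and is not a measured binding site.

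None of the 3 measured beta genes passed, and 1 had an unadjusted p under 0.05. Cacnb4, the beta subunit mutated in the ataxic lethargic mouse, read 9.27, 9.34 and 9.27 in knockout, against 9.44, 9.53 and 9.37 in wild type. The groups did not overlap, with a change of -0.15 (95% confidence interval -0.28 to -0.03, adjusted p = 0.149). Cacnb1 read 9.27, 9.37 and 9.30 in knockout, against 9.38, 9.35 and 9.43 in wild type, and Cacnb2 read 8.58, 8.62 and 8.62, against 8.66, 8.69 and 8.60. The groups of both overlapped, with changes of -0.07 and -0.05, and the interval of Cacnb1 (-0.19 to 0.04) leaves out a change as large as that of Cacna1c. Second probe sets of Cacnb2 and Cacnb4, dimmer than the ones used, had changes of -0.12 and -0.03 and did not pass.

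None of the 8 gamma genes passed either (limma, family median -0.10). At an unadjusted p under 0.05, 2 had a negative change and 1 a positive one. Cacng2, which encodes stargazin, the AMPA receptor partner that granule neurons need for synaptic AMPA receptors, read 10.98, 11.03 and 10.77 in knockout, against 11.13, 11.21 and 11.06 in wild type (log2 change -0.21, adjusted p = 0.113). The groups did not overlap. A second, dimmer probe set of Cacng2 read 8.23, 8.21 and 8.18 in knockout, against 8.995, 8.83 and 8.46 in wild type, with a change of -0.55 that passed in a fit over all single-symbol probe sets (SE 0.11, adjusted p = 0.0203). The 2 probe sets of this gene thus gave different calls with the same sign.

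Cacng8, another AMPA receptor partner, read 8.72, 8.74 and 8.71 in knockout, against 8.92, 8.97 and 8.85 in wild type (log2 change -0.19, adjusted p = 0.0744). Cacng5 ran the other way: it read 9.64, 9.60 and 9.53 in knockout, against 9.52, 9.39 and 9.31 in wild type (log2 change 0.19, adjusted p = 0.124), with every knockout array above every wild-type array. Cacng4 and Cacng7 had changes of -0.16 and -0.10 and Cacng3 one of 0.04. The muscle subunit gene Cacng1 and Cacng6 read between 6.18 and 6.90 on all arrays, with changes of -0.04 and -0.10.

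Of the 8 sodium channel alpha genes 0 passed, with 1 negative and 1 positive change at an unadjusted p under 0.05. In Scn8a, Scn2a and Scn3a, alpha subunits of central neurons, the groups overlapped. Scn8a (Nav1.6), the main channel of the mature axon initial segment and important for Purkinje cell firing, read 10.53, 10.35 and 10.34 in knockout, against 10.46, 10.54 and 10.46 in wild type. Its change was -0.08 (95% confidence interval -0.22 to 0.05). Scn2a (Nav1.2), the early axonal channel that parallel fibres keep, read 9.83, 10.06 and 9.94 in knockout, against 10.02, 10.05 and 9.95 in wild type, with a change of -0.07 (-0.21 to 0.07). Scn3a (Nav1.3), the channel of immature neurons, read 9.17, 9.47 and 9.09 in knockout, against 9.44, 9.34 and 9.28 in wild type, with a change of -0.11 (-0.32 to 0.09). Each of these intervals leaves out a fall as large as that of Cacna1c or Cacna1e.

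Scn1a (Nav1.1), the channel whose loss causes Dravet syndrome and which inhibitory neurons rely on, had the lowest change of the sodium channel genes. It read 8.62, 8.78 and 8.51 in knockout, against 8.91, 9.08 and 8.81 in wild type. The groups did not overlap, but the change of -0.30 did not pass (95% confidence interval -0.49 to -0.10, adjusted p = 0.0749). Scn9a (Nav1.7), best known from pain-sensing neurons and named here after its values were seen, had the highest change of all 36 channel genes. It read 7.86, 7.68 and 7.65 in knockout, against 7.45, 7.50 and 7.23 in wild type. Every knockout array lay above every wild-type array, and the change of 0.34 missed the threshold (0.13 to 0.54, adjusted p = 0.0627). The changes of the neighbouring genes Scn1a and Scn9a, also a pair picked after its values were seen, differed by -0.63. The exact permutation p was 0.1 (0.1 after adjustment), the smallest possible here, so the test cannot decide on that difference. The channels of sensory neurons Scn10a and Scn11a and the atypical channel Scn7a read 5.38 to 6.49 in knockout and 5.37 to 6.42 in wild type. The mean of Scn7a and that of Scn11a lay below the 25th percentile of all values (6.02), and the deposited values carry no detection call.

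Sodium channel beta subunits did not pass either (0 of 3, and 0 at an unadjusted p under 0.05). Scn3b read 10.27, 10.29 and 10.10 in knockout, against 10.37, 10.38 and 10.25 in wild type, with a change of -0.11. Scn2b read 8.30, 8.58 and 8.30, against 8.38, 8.49 and 8.18 in wild type, with a change of 0.04. Scn4b, which shapes the resurgent current of Purkinje cells, read 6.31, 6.39 and 6.35, against 6.53, 6.32 and 6.33 in wild type, with a change of -0.05. The groups overlapped for all 3.

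**Figure D3:**
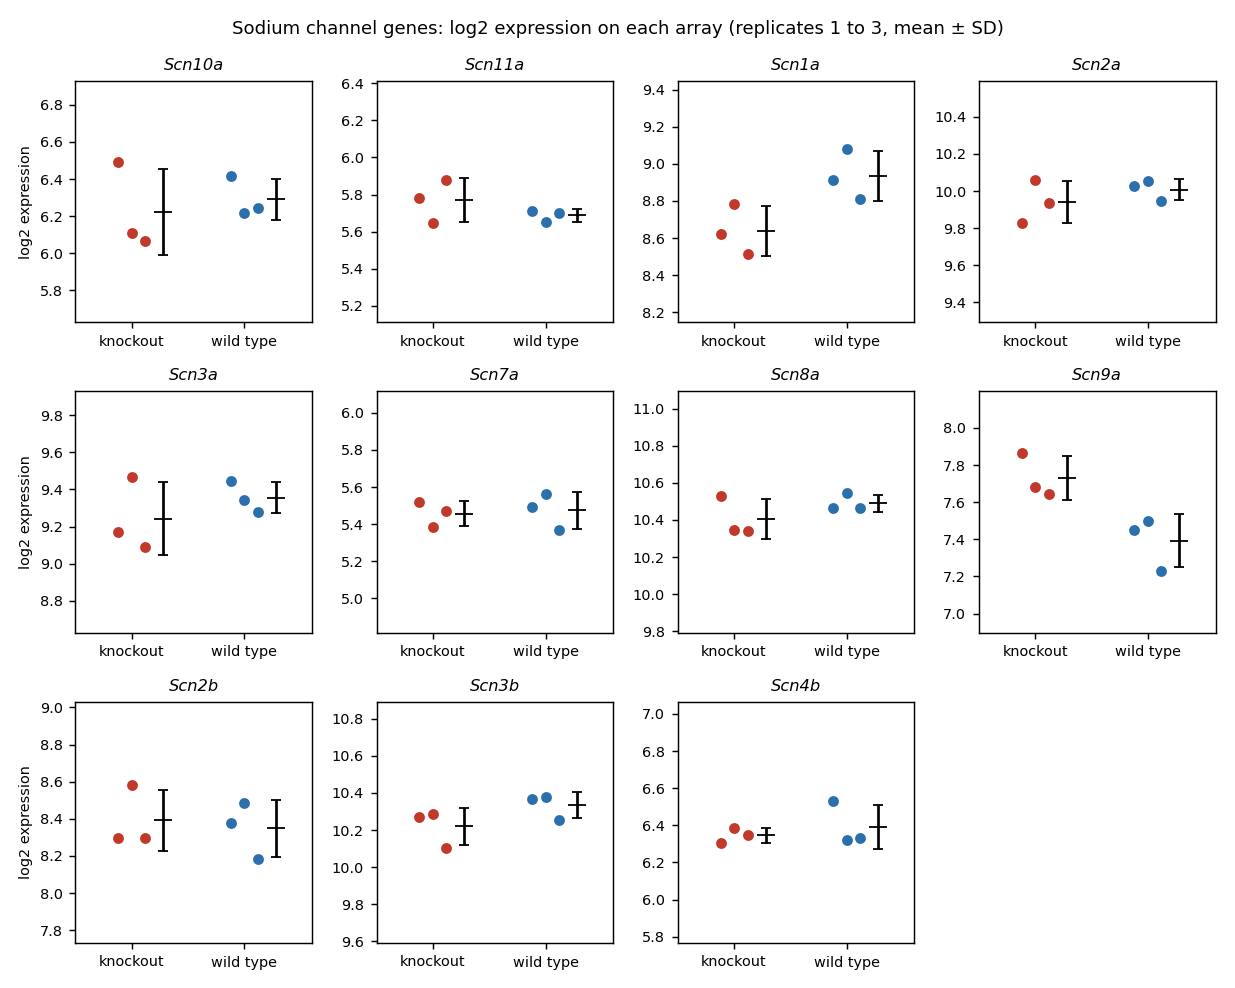
Log2 expression (vertical axis) of the 11 sodium channel genes on each of the 3 knockout arrays (red) and 3 wild-type arrays (blue), with black marks for the mean and SD of a group; every panel spans the same number of log2 units. The groups are apart for Scn1a (knockout below) and Scn9a (knockout above) and overlap for the other 9 genes.

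Several channel genes lie side by side in the mouse genome, and their changes are given side by side. In the RefSeq gene order Scn1a, Scn9a and Scn7a adjoin each other on chromosome 2, with changes of -0.30, 0.34 and -0.02. Cacng1, Cacng4 and Cacng5 adjoin on chromosome 11, with changes of -0.04, -0.16 and 0.19, and Cacng7, Cacng8 and Cacng6 on chromosome 7, with -0.10, -0.19 and -0.10. Cacna1c and Cacna2d4 are parted by 1 gene, Dcp1b, on chromosome 6, with changes of -0.49 and 0.11.

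Partners of the channels were taken from lists of known binding and pathway genes. These lists, like the marker lists below, were chosen with earlier results of these data known. The counts in each partner list below stand beside 3.94% of all genes tested that fell and 2.72% that rose. At an unadjusted p under 0.05 in limma, 2411 of the 22180 genes had a negative and 2120 a positive change. Of 14 genes whose proteins anchor sodium channels at the axon initial segment, or bind and tune them, 8 fell, 0 rose and 6 did not pass (median -0.23). At an unadjusted p under 0.05 in limma, 12 had a negative change and 1 a positive one. Ank3, the ankyrin-G that gathers sodium channels at the axon initial segment, averaged 11.56 ± 0.07 in knockout and 11.98 ± 0.01 in wild type (SD, n = 3 each; log2 change -0.43, limma adjusted p = 0.000838). Ank2, the axonal ankyrin-B, fell by 0.38 and Nedd4l, a ubiquitin ligase that removes sodium channels from the membrane, by 0.31. Cntn2, a contactin of young granule neuron axons that is also in the granule neuron list below, fell by 0.77. Outside the naming rule, Fgf13 and Fgf12, which bind the tails of sodium channels, fell by 0.36 and 0.24, Sptbn4 (beta-IV spectrin) by 0.33 and Nrcam by 0.21. The 1 positive change in this list was 0.21, with every knockout array above every wild-type array, and did not pass. With array weights, or without knockout replicate 3, 1 gene of the list rose. The number that fell was 5 without knockout replicate 1, knockout replicate 3 or wild-type replicate 2, 4 without wild-type replicate 1, and 1 (Cntn2) without the 3 arrays with high Ttr. With the choroid plexus markers as a covariate it was 4. Over all 16 alternative fits the change of Ank3 stayed between -0.46 and -0.39, that of Ank2 between -0.40 and -0.35 and that of Nedd4l between -0.33 and -0.28.

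Among 15 presynaptic partners of calcium channels 6 fell, 0 rose and 9 did not pass, and all 15 changes were negative (median -0.28). At an unadjusted p under 0.05 in limma 9 had a negative change and 0 a positive one. Unc13a, which primes vesicles for release, averaged 10.14 ± 0.01 in knockout and 10.66 ± 0.07 in wild type (SD, n = 3 each; log2 change -0.51, limma adjusted p = 0.000473). Rims1, the active zone protein that tethers calcium channels near vesicles, fell by 0.44, Erc1 by 0.30 and the fusion protein gene Snap25 by 0.28. The number that fell was 3 when wild-type replicate 1 or 2 was dropped and 1 (Unc13a) without the 3 arrays with high Ttr. It was also 1 when the mean of the choroid plexus markers entered as a covariate.

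Of 18 genes of calcium stores, pumps and exchangers 3 fell, 1 rose and 14 did not pass (median -0.05). Ryr2, a calcium release channel of the endoplasmic reticulum, read 9.74, 9.74 and 9.75 in knockout, against 10.21, 10.38 and 10.14 in wild type (log2 change -0.50, adjusted p = 0.00194). Slc8a2, a sodium-calcium exchanger, fell by 0.75, a change that was -0.38 without the 3 arrays with high Ttr. Atp2b1, a calcium pump of the plasma membrane, fell by 0.42. Stim1, the store sensor that opens Orai channels, rose by 0.24 (adjusted p = 0.0371), a call lost in each of the 6 fits that dropped an array (adjusted p from 0.0609 to 0.141). Without the 3 arrays with high Ttr 0 passed in either direction.

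Among 8 AMPA receptor subunits and auxiliaries, the receptors that gamma subunits join, 2 fell, 1 rose and 5 did not pass (median -0.10). Gsg1l, an auxiliary subunit that slows receptor recovery, read 10.47, 10.32 and 10.24 in knockout, against 9.90, 9.87 and 9.83 in wild type (log2 change 0.48, SE 0.06, adjusted p = 0.00221), and it passed in all 16 alternative fits. Gria4, an AMPA receptor subunit, fell by 0.28 and the auxiliary Cnih2 by 0.23 (-0.12 once the 3 arrays with high Ttr were dropped), while Gria1, with a change of 0.13, did not pass. The number that fell was 1 without knockout replicate 1, knockout replicate 3, wild-type replicate 1 or wild-type replicate 3, and 0 when wild-type replicate 2 was dropped, without the 3 arrays with high Ttr or with the choroid plexus covariate.

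Of 14 genes that move or inhibit calcium channels, 2 fell, 0 rose and 12 did not pass (median -0.01). At an unadjusted p under 0.05 in limma 2 had a negative and 2 a positive change. Gem, a small G protein that blocks calcium channels, fell by 0.34 and Cbarp, which inhibits them through beta subunits, by 0.32. The number that fell was 1 without knockout replicate 1 or knockout replicate 2, and 0 without any 1 wild-type array, without the 3 arrays with high Ttr or with the choroid plexus covariate, while 2 rose without knockout replicate 2. Thbs1 and Thbs3 encode thrombospondins, ligands of the Cacna2d1 protein. Thbs1 read 7.69, 7.30 and 8.07 in knockout, against 7.10, 7.19 and 7.08 in wild type (log2 change 0.56, adjusted p = 0.0651), and Thbs3 had a change of 0.26 (adjusted p = 0.107). The highest values of Thbs1 were on the 2 knockout arrays with high Ttr, and the fit without all 3 arrays with high Ttr gave 0.16 and the fit with the choroid plexus covariate 0.25. None of 9 genes of related channels passed, and 0 did so at an unadjusted p under 0.05 in limma: the sodium leak channel gene Nalcn, its partners Unc79 and Unc80, the lysosomal channels Tpcn1 and Tpcn2 and the sperm channels Catsper1 to Catsper4 (median -0.04, lowest p for Catsper4 with a change of -0.16 and an adjusted p of 0.392).

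**Figure D4:**
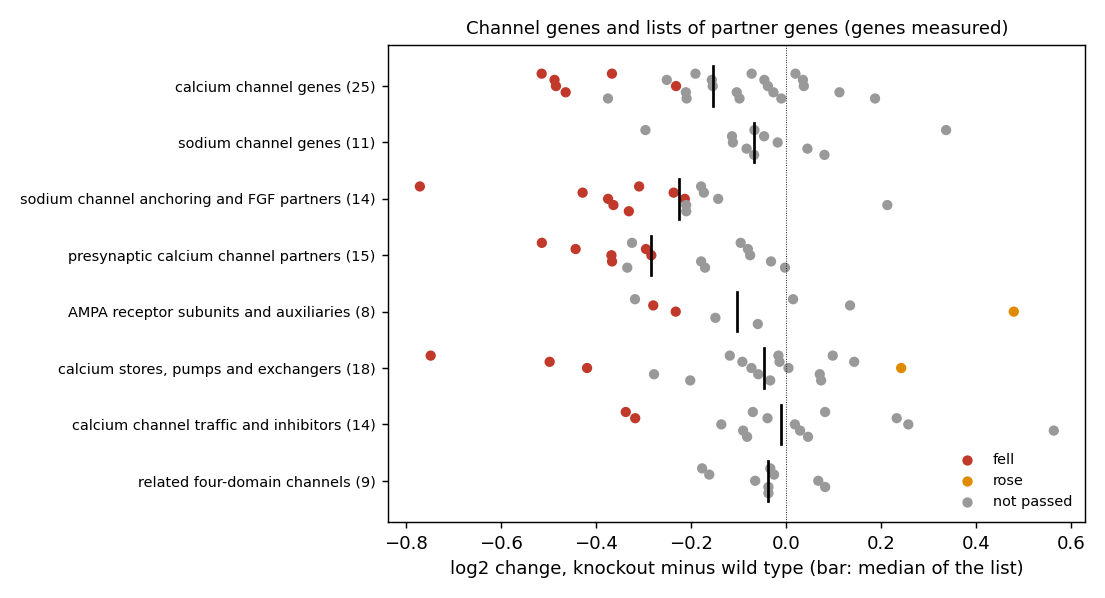
Log2 change (knockout minus wild type, horizontal axis) of each measured gene in the calcium and sodium channel families and in 6 lists of partner genes, with 1 point for each gene and a black bar at the list's median. The calcium channel genes, the sodium channel anchoring list and the presynaptic list hold most of the genes that fell (red), while 2 partner genes rose (orange).

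Cell type marker lists were counted in the same way, beside 3.94% of all genes tested that fell and 2.72% that rose. At an unadjusted p under 0.05 in limma, 2411 of the 22180 genes had a negative and 2120 a positive change. Granule neuron markers also differed between the groups. Of 10 such markers 8 fell, 0 rose and 2 did not pass, with a median of -0.52, and 10 had a negative change at an unadjusted p under 0.05 in limma. Their mean was 10.07, 10.25 and 10.23 on the knockout arrays, against 10.71, 10.87 and 10.66 on the wild-type arrays. In whole tissue, fewer cells of a type and less RNA per cell cannot be told apart. Of 8 granule precursor markers 2 rose and 2 fell, and of 7 Purkinje cell markers 0 passed (1 at an unadjusted p under 0.05, with a positive change). Of 9 oligodendrocyte markers 1 fell (8 had a negative change at an unadjusted p under 0.05), and their mean ran from 8.81 to 9.46 in knockout and from 9.49 to 9.56 in wild type. Of 9 Bergmann glia and astrocyte markers 3 rose. The means of 8 skeletal muscle markers were 6.99 to 7.10 in knockout and 6.93 to 7.02 in wild type. Of 9 choroid plexus markers 0 passed and 9 had a positive change (6 at an unadjusted p under 0.05), as did 7 of 8 markers of meninges (5 at that p). The choroid plexus mean ran from 7.13 to 9.39 in knockout and from 7.09 to 7.76 in wild type. With it as a covariate, 5 channel genes fell (Cacna1c, Cacna1e, Cacna1i, Cacna2d1 and Cacna2d3) and 0 rose, and Cacna1a and Cacna1g no longer passed. Their changes were then -0.18 and -0.34, beside -0.23 and -0.37 without the covariate. The part of granule neuron or oligodendrocyte content in the channel results was not tested.

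**Figure D5:**
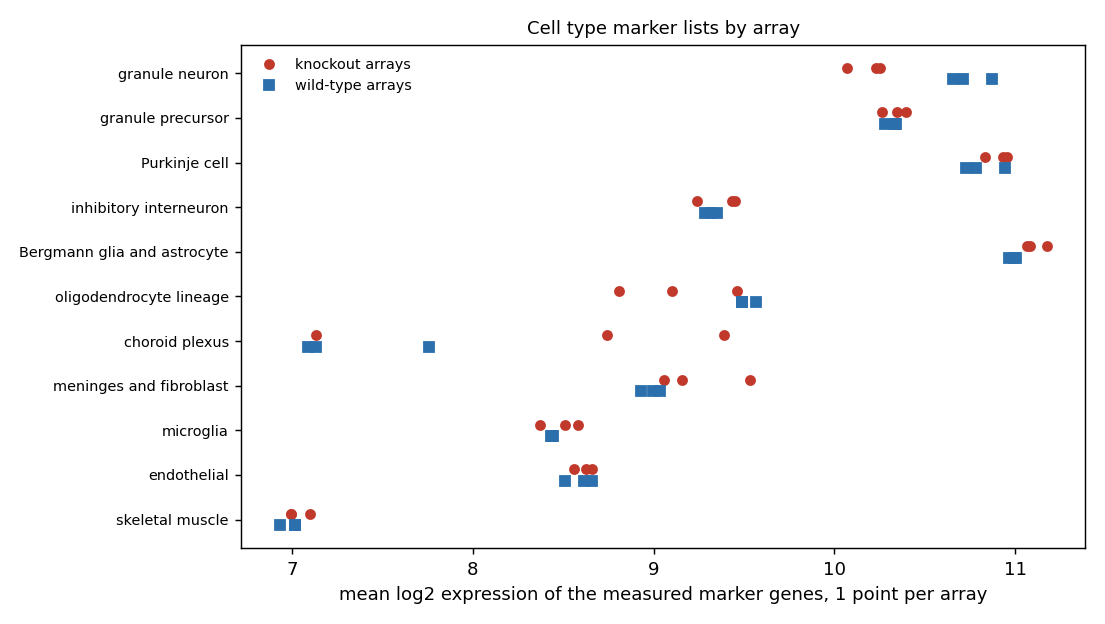
Mean log2 expression (horizontal axis) of the measured markers of 11 cell types on each knockout array (red circles) and wild-type array (blue squares). The granule neuron means are separate, with knockout at 10.07 to 10.25 and wild type at 10.66 to 10.87, and the choroid plexus means vary most between arrays.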

How the data were processed

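The authors' deposited values are log2 expression values, 1 for each of 41345 probe sets on 6 arrays. The submitters' processing notes name RMA and oligo and give no version. RMA corrects background, makes the arrays' distributions alike and summarises probes, and it gives no detection call. The sources used here give neither a genome build for the array nor any filter applied earlier. Nothing further was done to the log2 values. GEO's platform annotation gave 1 symbol to 23521 probe sets, several to 1814 and none to 16010, and the probe set with the highest mean was kept for each of 22180 genes.

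Knockout and wild type were compared by limma 3.58.1 under R 4.3.3 (lmFit, eBayes with a prior variance that follows brightness). Tests were two-sided, with Benjamini-Hochberg adjustment over the 22180 genes and a threshold of 0.05. "Rose" and "fell" are used of genes that passed. The fit was tested on simulated data, with settings and outcome not given here. Values for each array are given for genes that passed and for the main neuronal subunits, and up to 4 genes of each partner list are named by their p. The channel genes, lists and tests were chosen with earlier results of these data known. Promoter sequences and gene order came from RefSeq (GRCm38.p6). Alternatives were other priors, weights and normalizations, a filter on dim genes, the mean of a gene's probe sets, the replicate number as a block, other thresholds, each array left out in turn and, added after the data had been seen, a choroid plexus covariate and the removal of the 3 arrays with Ttr above 10. The values of genes, lists and alternative fits were computed in R. Promoter and gene order results and plots were made in Python 3.11.15 with pandas 2.3.3 and matplotlib 3.10.9. Precision is limited by the 3 arrays in each group.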

Additional observations from a re-analysis of the deposited data

How the results depend on the processing

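The number of channel genes that fell was 6 and that rose 0 as reported. With 1 array left out, 4 to 6 fell and 0 rose, and the median log2 change of the 36 genes ran from -0.12 to -0.06. The genes that passed varied between these 6 fits. Cacna1b and Scn1a, which did not pass in the reported fit, each passed in 1 (limma adjusted p = 0.0367 and 0.0389). Cacna1g passed in 2 of them and Cacna1a in 1. The number that fell was 3 with a prior without a trend, 3 without the 3 arrays with high Ttr (median -0.039) and 10 at an adjusted p under 0.1. The number that rose was 1 (Scn9a) at an adjusted p under 0.1 and 1 with array weights. Cacna1c and Cacna1e passed in all 16 alternative fits and Cacna2d1 and Cacna2d3 in 15, while Cacna1g passed in 9 and Cacna1a in 8. With the mean of a gene's probe sets, 7 fell and 0 rose. With the replicate number as a block, 8 fell (Cacng2 and Scn1a besides the 6) and 1 rose (Scn9a). Calls over all genes were also more in the block fit, with 723 that rose and 1078 that fell. Same-numbered arrays did not deviate together (correlations of 0.014, 0.03 and -0.13 across genes, which are not independent), so the numbers are taken as names only. Over all genes 184 rose and 310 fell with a prior without a trend, against 604 and 875 in the reported fit, and 112 rose and 124 fell without the 3 arrays with high Ttr. With a prior without a trend, 4 genes of the anchoring list, 1 of the presynaptic list, 2 of the stores list and 0 of the AMPA receptor and traffic lists fell. With 1 array left out the counts over all genes ran from 199 to 478 rises and 366 to 800 falls. Changes of 13 channel genes and of Catsper1, none of which passed in any fit, turned sign under some alternative. With 1 array left out the change ran from -0.024 to 0.10 for Cacna1d, from -0.058 to 0.033 for Cacna1f, from -0.051 to 0.016 for Cacna1s, from -0.055 to 0.13 for Cacna2d2, from -0.19 to 0.048 for Cacng1, from -0.0059 to 0.10 for Cacng3, from -0.20 to 0.011 for Scn10a, from -0.050 to 0.11 for Scn2b, from -0.084 to 0.021 for Scn4b and from -0.072 to 0.026 for Scn7a. Without the 3 arrays with high Ttr it was -0.029 for Cacna1d, 0.020 for Cacna1f, 0.079 for Cacng1, -0.031 for Scn11a, 0.057 for Scn2a, 0.15 for Scn3a and 0.061 for Scn4b. With the choroid plexus covariate it was -0.026 for Scn11a, 0.035 for Scn3a and 0.060 for Catsper1. The cause of these shifts was not tested. The values hold no signal over background, which limits what can be said of dim genes such as Scn7a and Scn11a.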

Other observations

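A further probe set of the array is annotated to both Scn9a and the predicted gene Gm13629, and it entered no comparison because it has more than 1 symbol. It read 6.65, 6.74 and 6.61 on the knockout arrays, against 6.86, 6.71 and 6.53 on the wild-type arrays. The groups overlapped, with a difference of -0.03, whereas the probe set of Scn9a alone had a change of 0.34.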
